A study of Mus musculus with 3 samples.

Results

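Guidance genes of the semaphorin, ephrin, Slit and netrin families were described in RNA sequencing of the proximal mouse incisor. Members were the protein coding genes of the deposited table whose symbols name semaphorins of classes 3 to 7, plexins, neuropilins, Eph receptors, ephrins, Slits, Robos or netrins. The rule found 61 genes among 15252 listed protein coding genes and 19381 listed genes in all, comprising 35 ligand genes and 26 receptor genes. GENCODE M21 holds 64 protein coding genes that match the same symbols, and the other 3 were not analysed here.

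All 3 libraries came from mice with the genotype Gli1-CreER;Arid1afl/fl;Arid1bfl/fl, called DKO, at an age of 1 month. They had received tamoxifen, 1.5 mg for each 10 g of weight, and the proximal incisor, labelled as mesenchyme, was taken 4 days later. The Cre is driven by Gli1, so recombination is directed at Gli1-expressing cells and their descendants, while the whole digested region was sequenced. Mice without the deletion were not analysed here, so no value below is a difference between genotypes, and the labels do not say whether the libraries came from separate animals. The SD is thus a spread over libraries and could be technical in part or whole.

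Values are the deposited normalized units, which were not divided by gene length. Levels of different genes are compared here only per kilobase of exon, with lengths taken from GENCODE M21. Library totals were between 958773 and 986401 units. The mesenchymal markers Pdgfra and Prrx1 stood at 610 ± 36.3 and 619 ± 57.9 units (SD, n = 3). The others of that list were Twist1 (51.0 ± 7.37), Gli1 (41.7 ± 3.53) and Thy1 (21.3 ± 0.693). Odontoblast markers were Col1a1 (9461 ± 4518), Dspp (3174 ± 1963), Phex (265 ± 162) and Dmp1 (9.34 ± 4.03). All 6 of 6 dental epithelium, 6 of 6 endothelial and 5 of 5 macrophage markers also had a mean of at least 10. Of 3 listed neuronal markers only Tubb3 (17.6 ± 0.307) reached that level. No listed marker was at 0. In such bulk tissue, fewer cells of a type and less RNA per cell cannot be told apart.

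Guidance molecules were first studied as cues that attract or repel growing axons, and the same ligands and receptors steer migrating mesenchymal, vascular and epithelial cells. Class 3 semaphorins are secreted and bind a neuropilin and plexin complex, while most other semaphorins are membrane bound and bind plexins directly. Ephrins are themselves attached to the cell surface, A types by a lipid anchor and B types by a transmembrane segment, so that Eph signalling needs contact between cells. Slits are secreted ligands of Robo receptors, and netrins are laminin-like secreted proteins that bind DCC, neogenin and UNC5 receptors. In the incisor, sensory axons enter the pulp, and semaphorin 3A is a known repellent for axons of the developing tooth.

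Upstream sequences are shown for 3 of the 4 class 3 semaphorin genes that lie together on chromosome 5, because the libraries separated within that group as described further on. Each is the stretch of 250 bases before the RefSeq start on the plus strand of GRCm38.p6. It is written 5′ to 3′ in lower case, with capitals marking CCAAT or GGGCGG on either strand. The positions are chr5:12382916-12383165 for Sema3d, chr5:13396534-13396783 for Sema3a and chr5:14025026-14025275 for Sema3e. The RefSeq start of Sema3a lies inside the longer GENCODE span of that gene.
Sema3d: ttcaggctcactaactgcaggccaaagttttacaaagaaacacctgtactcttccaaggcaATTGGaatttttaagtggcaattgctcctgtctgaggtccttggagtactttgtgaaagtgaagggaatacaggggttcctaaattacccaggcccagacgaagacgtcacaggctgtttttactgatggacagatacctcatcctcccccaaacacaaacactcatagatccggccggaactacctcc
Sema3a: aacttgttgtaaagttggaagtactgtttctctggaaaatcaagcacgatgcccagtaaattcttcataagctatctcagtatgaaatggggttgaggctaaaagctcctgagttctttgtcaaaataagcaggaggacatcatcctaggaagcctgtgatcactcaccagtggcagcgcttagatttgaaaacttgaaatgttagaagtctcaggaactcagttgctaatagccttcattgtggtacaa
Sema3e: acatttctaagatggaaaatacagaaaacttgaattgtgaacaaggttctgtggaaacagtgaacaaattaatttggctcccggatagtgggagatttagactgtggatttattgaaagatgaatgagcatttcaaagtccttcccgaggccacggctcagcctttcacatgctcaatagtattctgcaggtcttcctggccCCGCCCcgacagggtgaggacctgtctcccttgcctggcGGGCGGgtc

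The 3 sequences differ in motif content. Sema3d has 1 CCAAT and 4 CpG dinucleotides, Sema3a has none of the motifs searched and 2 CpG, and Sema3e has 2 GGGCGG and 7 CpG. The corresponding window of Sema3c holds 3 GGGCGG and 39 CpG, and is not printed because it overlaps an annotated exon of the gene. None of the 4 stretches holds any of the other motifs searched, which were TATAAA with the E-box CACGTG and the homeobox core TAATTA. With the 50 bases after the start included, Sema3e has 1 CACGTG. Among 32851 RefSeq promoter windows of 300 bases (250 before and 50 after the start), CCAAT was present in 37.4%, GGGCGG in 35.7%, TATAAA in 13.6%, CACGTG in 7.15% and TAATTA in 5.29%, counting both strands. Windows were listed for 53 of the 61 members, 69 in all, and of these 26.1% held CCAAT, 69.6% GGGCGG, 2.90% TATAAA, 5.80% CACGTG and 4.35% TAATTA. A match describes the letters of the window and not a bound site.

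Most guidance genes were measurable in this tissue. A mean of at least 10 units was reached by 49 of 61 members (80.3%), compared with 66.5% of all listed protein coding genes. These were 28 of 35 ligand genes and 21 of 26 receptor genes. A further 8 members lay between 1 and 10, and 4 lay under 1: Sema5b (0.747 ± 0.391), Plxnb3 (0.674 ± 0.207), Robo3 (0.573 ± 0.148) and Slit1 (0.480 ± 0.184). The median of the member means was 32.1 units, against 21.5 for protein coding genes. After division by exon length the median member lay at percentile 52.5 of protein coding genes.

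**Figure D1:**
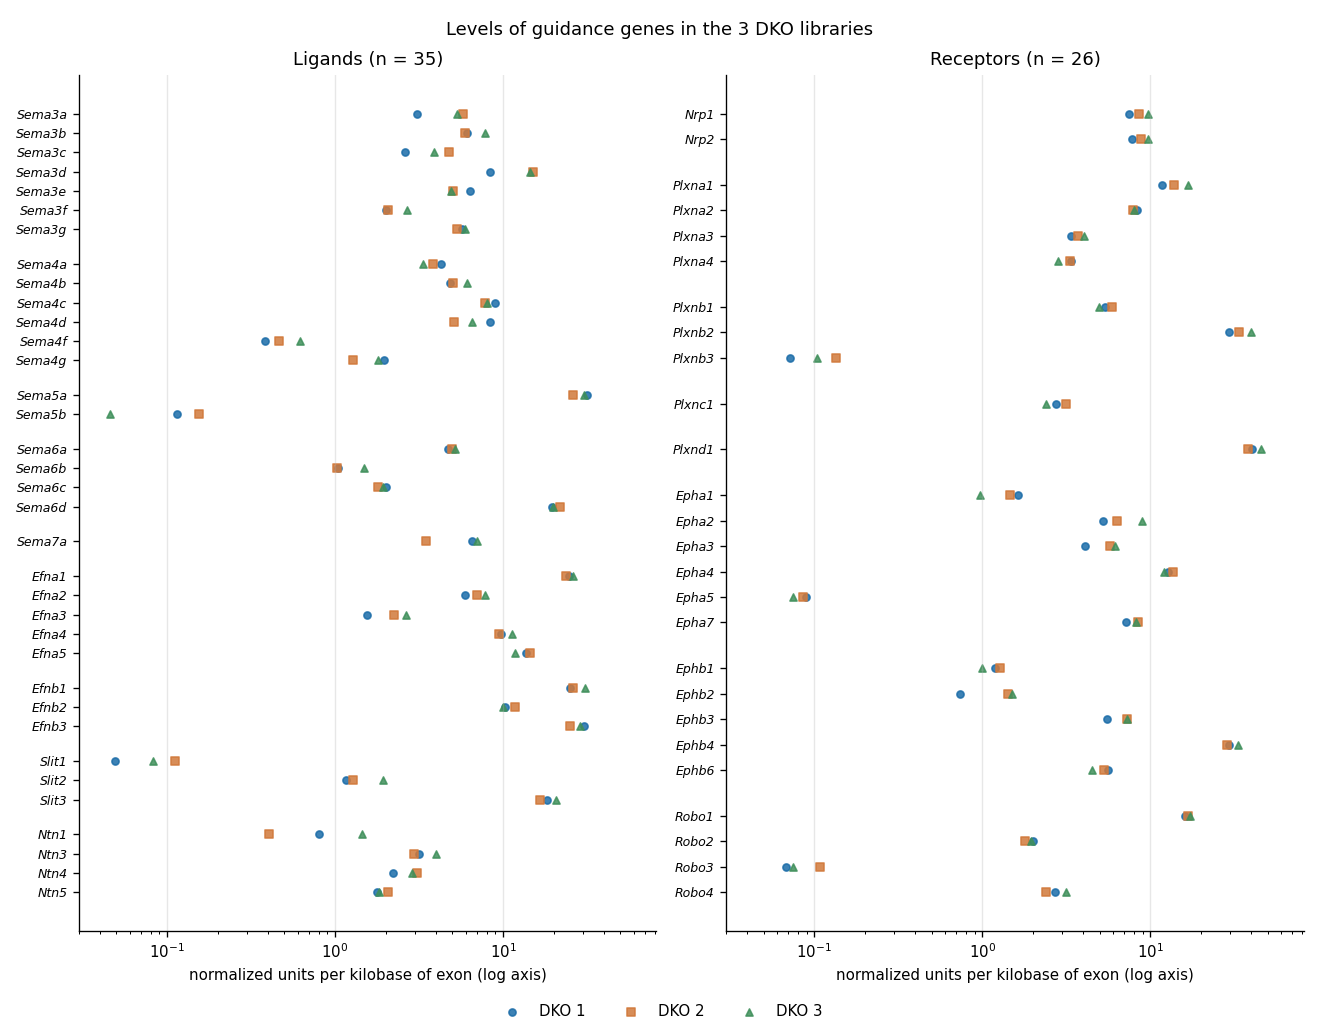
Level of each guidance gene in the 3 DKO libraries, in normalized units per kilobase of exon on a log axis, with ligands on the left, receptors on the right and gaps between families. Plxnd1 has the highest mean (41.4) and Slit1 the lowest (0.0811), and the 3 libraries lie close together for most genes.

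The most abundant guidance transcripts per kilobase were 3 receptors and 4 ligands. Plxnd1, which encodes the plexin that binds semaphorin 3E, led the order at 40.4, 38.1 and 45.8 units per kilobase (41.4 ± 3.95, SD, n = 3). It was followed by Plxnb2 (34.2 ± 5.21), Ephb4 (30.5 ± 2.51), Sema5a (29.2 ± 2.89), Efnb3 (28.1 ± 2.65), Efnb1 (27.4 ± 3.08) and Efna1 (24.9 ± 1.28). The libraries of each of these 7 genes except Efna1 overlapped with those of the next in the order. Such overlap takes no account of values coming from the same library. Compared within libraries, Plxnd1 lay above Plxnb2, Sema5a above Efnb3 and Efnb1 above Efna1 in every library. The order of the other neighbours among these 7 was not the same in all libraries. Genes further apart did not always overlap, and the lowest library of Plxnd1 (38.1) lay above the highest of Ephb4 (33.3). Below Efna1 came Sema6d (20.5 ± 1.24), with no overlap of libraries between them. Only 2 of the 60 steps in the order lacked such overlap, this one and the step from Sema4f (0.488 ± 0.118) to Sema5b (0.105 ± 0.0552).

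**Figure D2:**
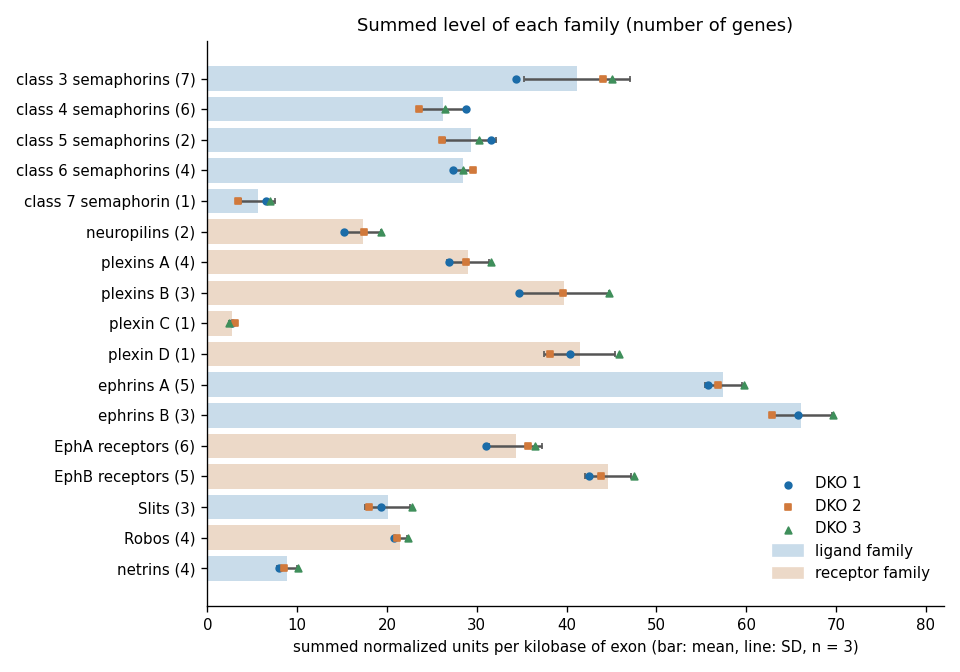
Summed normalized units per kilobase of exon for each ligand family (blue bars) and receptor family (tan bars), with bars for the mean, lines for the SD over n = 3 libraries and points for the libraries. B-type ephrins (66.1 ± 3.41) and A-type ephrins (57.5 ± 2.08) have the longest bars.

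Per kilobase, ephrins held the largest summed level of the 17 families. B-type ephrins summed to 66.1 ± 3.41 and A-type ephrins to 57.5 ± 2.08 units per kilobase (n = 3), equal to 12.9% and 11.2% of the guidance total. Without division by length they held 6.62% and 3.49%, and class 5 semaphorins, at 14.1%, were above both. Eph receptors were lower than ephrins per kilobase, at 44.6 ± 2.59 for EphB and 34.4 ± 2.95 for EphA genes. As deposited, EphA genes (6.86%) were above A-type ephrins, while EphB genes (5.87%) stayed below B-type ephrins. In units per kilobase, plexin D (41.4 ± 3.95), class 3 semaphorins (41.1 ± 5.92) and B plexins (39.7 ± 5.0) followed EphB. Class 5 semaphorins (29.3 ± 2.86), A plexins (29.1 ± 2.33), class 6 (28.5 ± 1.13) and class 4 semaphorins (26.3 ± 2.63) were close to each other. Robos stood at 21.4 ± 0.786, Slits at 20.1 ± 2.45, neuropilins at 17.3 ± 2.04 and netrins at 8.86 ± 1.12. Semaphorin 7A (5.66 ± 1.91) and plexin C (2.76 ± 0.369) were the smallest. Ligand genes together summed to 283 ± 14.2 and receptor genes to 231 ± 18.1 units per kilobase. The receptor sum was 0.772, 0.834 and 0.835 times the ligand sum in libraries 1, 2 and 3. This direction depended on length, as receptor genes held the larger mean share of the guidance total in deposited values.

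Single genes carried most of several families. Sema5a held 99.6% of the class 5 sum, Slit3 92.4% of the Slit sum, Plxnb2 86.0% of the B plexin sum, Robo1 77.8% of the Robo sum, Sema6d 71.8% of the class 6 sum and Ephb4 68.2% of the EphB sum. In contrast, Sema3d held 30.3% of the class 3 sum and Sema4c 31.7% of the class 4 sum, so these families were spread over several genes.

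Among secreted semaphorins, Sema3d was the most abundant per kilobase and the class was measured in full, with 7 of 7 genes at a mean of at least 10. Sema3d (chromosome 5, 12383385 to 12588948, GRCm38) stood at 72.4, 130.0 and 124.0 units in libraries 1, 2 and 3. Sema3a (chromosome 5, 13125414 to 13602565), the axon repellent, stood at 42.6, 80.4 and 74.0, and Sema3c (chromosome 5, 17574281 to 17730268) at 18.7, 34.1 and 27.9. For each of these 3 genes library 1 was low and the others lay 1.75-, 1.81- and 1.66-fold above it on average. Sema3e (chromosome 5, 14025276 to 14256689), the ligand of plexin D1, went the other way, with 59.4, 46.7 and 45.5 units. Sema3g (25.7 ± 1.42) varied little, and Sema3b (31.6 ± 4.88) and Sema3f (10.4, 10.8 and 14.0), 72270 bases apart on chromosome 9, were both highest in library 3.

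Class 4 semaphorins are membrane proteins that bind mainly B plexins. Sema4d (chromosome 13, 51685529 to 51793747), a ligand of plexin B1 that osteoclasts are known to make, stood at 64.2, 39.1 and 50.1 units, highest in library 1 and lowest in library 2. Sema4g (chromosome 19, 44989101 to 45003397) stood at 17.1, 11.1 and 15.6, again lowest in library 2. Sema4c (41.3, 36.1 and 36.9), Sema4b (30.0 ± 3.88) and Sema4a (23.0, 20.7 and 18.1) had narrower spreads, and Sema4f was weak (2.58 ± 0.622).

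Sema5a (chromosome 15, 32244810 to 32696341), a membrane semaphorin with thrombospondin repeats, had the highest deposited value of all members. It stood at 588, 485 and 565 units (546 ± 54.1, n = 3), a difference of 1.21-fold between the highest and lowest library. Its exons sum to 18686 bases, and it had rank 4 per kilobase. Its relative Sema5b was at 0.816, 1.1 and 0.326 units. Among class 6 genes, which are transmembrane ligands of A plexins, Sema6d (chromosome 2, 124089969 to 124667770) stood at 207, 231 and 210 units and Sema6a at 41.2, 43.4 and 45.4. Sema6c (12, 10.6 and 11.5) and Sema6b (4.70 ± 1.04) were lower. Sema7a (chromosome 9, 57940112 to 57962865), a lipid-anchored ligand of plexin C1, stood at 21.6, 11.4 and 23.0, with library 2 below the other pair by 1.95-fold.

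Both neuropilins, the ligand-binding partners for class 3 semaphorins, were present at similar levels per kilobase. Nrp1 (chromosome 8, 128358604 to 128503363) stood at 73.1, 83.9 and 94.7 units and Nrp2 (chromosome 1, 62703285 to 62818695) at 91.8, 105 and 114, which is 8.58 ± 1.1 and 8.74 ± 0.941 per kilobase. Both were lowest in library 1 and highest in library 3.

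Plexins are the signal-transducing receptors of semaphorins, with a cytoplasmic domain that acts on small GTPases. Plxnb2 (chromosome 15, 89155549 to 89180788) stood at 227, 259 and 307 units and Plxna1 (chromosome 6, 89316314 to 89362620), which shares 10.7% of its exon bases with an opposite-strand gene at 0.222 units, at 107, 125 and 151, both lowest in library 1 and highest in library 3. Plxnd1 (chromosome 6, 115954811 to 115995005) stood at 295, 278 and 334. Plxna2 (chromosome 1, 194618218 to 194816869) was nearly constant at 143, 136 and 136 (138 ± 4.00), with a log2 range of 0.07, the smallest among members with a mean of at least 10. Plxnb1 (51.3, 56.7 and 47.4), Plxna4 (44.8 ± 4.30), Plxna3 (29.2 ± 2.70) and Plxnc1 (22.8, 26.2 and 20.1) were lower.

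A-type ephrins were led by Efna1, which stood at 45.3, 43.3 and 48.0 units (24.9 per kilobase), and Efna5 (chromosome 17, 62604184 to 62881317), which stood at 55.4, 58.3 and 47.4 units (13.3 per kilobase). Efna4 (15.6, 15.1 and 18), Efna2 (14.8 ± 2.02) and Efna3 (5.23 ± 1.37) were lower. Efna1, Efna3 and Efna4 lie in 1 cluster on chromosome 3, separated by 32756 and 10424 bases, at 24.9, 2.15 and 10.2 units per kilobase. Antisense genes share 14.1% of the Efna3 and 10.5% of the Efna4 exon bases. The strand setting of the counting is not given in the sources used here, so reads of these pairs cannot be told apart.

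B-type ephrins were all abundant. Efnb1 (chromosome X, 99136130 to 99148991), known for its part in craniofacial bone formation, stood at 87.1, 89.7 and 107 units. Efnb3 (chromosome 11, 69554092 to 69560205) stood at 96.4, 80.0 and 91.5, and Efnb2 (chromosome 8, 8617434 to 8661242), the arterial ephrin that binds EphB4, at 70.3, 80.6 and 68.7. The largest difference between libraries within these 3 genes was 1.23-fold, for Efnb1.

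EphA receptors were led by Epha4 (chromosome 1, 77367185 to 77515088) at 103, 110 and 97.0 units and Epha7 (chromosome 4, 28813131 to 28967499) at 70.8, 83.0 and 81.3. Epha3 (chromosome 16, 63543534 to 63864175) stood at 35.7, 49.8 and 53.6 and Epha2 (chromosome 4, 141301240 to 141329384) at 24.6, 29.8 and 41.9. Both were lowest in library 1 and highest in library 3, by 1.50-fold for Epha3 and 1.71-fold for Epha2. Epha1 (5.32 ± 1.36), a receptor of epithelia, and Epha5 (1.39 ± 0.118) were weak. The opposite-strand gene Zyx (mean 32.7 units) shares 6.01% of the Epha1 exon bases, so the Epha1 value is uncertain. Among EphB genes, Ephb4 (chromosome 5, 137350109 to 137378669), the venous receptor for ephrin-B2, stood at 137, 133 and 155. Ephb3 (36.9, 47.9 and 48.1) and Ephb6 (19.4 ± 2.21), whose protein lacks kinase activity, followed. Ephb2 (chromosome 4, 136647539 to 136835988) stood at 9.26, 17.9 and 18.8, with library 1 low by 1.98-fold against the mean of the others. Ephb1 was at 8.07 ± 0.988.

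Slit3 (chromosome 11, 35121224 to 35708507) was the main Slit, at 110, 101 and 126 units. Slit2 (chromosome 5, 47983138 to 48307733) stood at 29.6, 32.4 and 49.1, with library 3 above the mean of the others by 1.58-fold. Robo1 (chromosome 16, 72308306 to 73046095), the receptor of both, was high and even at 264, 278 and 283 (275 ± 9.71). Robo2 (34.2, 30.7 and 33.1), 845743 bases away on the opposite strand, was even too. Robo4 (14.6 ± 1.98), the endothelial Robo, and Robo3 (0.573 ± 0.148) end 553 bases apart on chromosome 9 and differed widely in level.

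Netrins were the weakest ligand family besides semaphorin 7A. Ntn3 (17.2 ± 2.77) and Ntn4 (10.2 ± 1.65), a basement membrane netrin, were at a mean of at least 10, while Ntn5 (4.19 ± 0.344) and Ntn1 (5.54 ± 3.27) were below. Ntn1, the classical axon attractant, stood at 5.04, 2.55 and 9.04 units, a 3.54-fold difference between libraries 3 and 2. The opposite-strand gene Sec1 (mean 4.46 units) shares 23.4% of the Ntn5 exon bases, so the Ntn5 value is uncertain. Smaller parts of the Ntn3 exon bases are shared, 1.74% with Tbc1d24 (mean 39.4 units) on the same strand and 2.72% with BC028777 on the opposite strand.

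Ligands were set against known receptors in 34 fixed pairs, each compared within the same library on log2(units per kilobase + 1). The receptor was higher in 3 of 3 libraries for 20 pairs, the ligand was higher in 3 of 3 for 10, and 4 pairs were mixed. Several pairs share a gene and all share the same 3 libraries, so they are not independent. For every pair with 1 direction p was 0.25 in an exact permutation test that flips signs (two-sided), and 0.50 for the mixed pairs. With n = 3 libraries 0.25 is the smallest p possible, so no pair can pass a threshold of 0.05. Of the mixed pairs, Robo1 with Slit3 (1.29) and Epha4 with Efna5 (0.93) had more receptor RNA without division by length. A difference in RNA level is not a difference in protein.

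**Figure D3:**
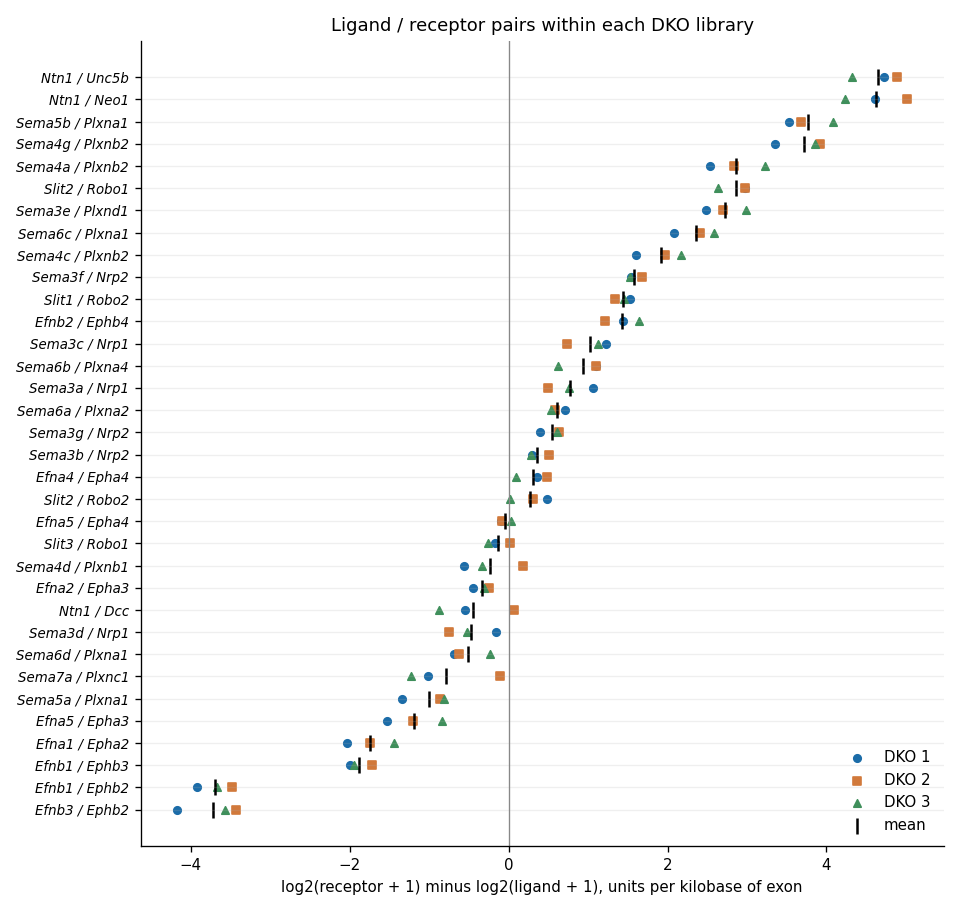
Receptor minus ligand difference for 34 pairs, as log2(units per kilobase + 1), with 1 point for each DKO library and a black tick for the mean. Points right of the grey line have more receptor RNA, from Efnb3 and Ephb2 at the bottom (-3.73) to Ntn1 and Unc5b at the top (4.64).

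For the secreted semaphorins the receptor side mostly exceeded the ligand side. Plxnd1 exceeded Sema3e by 2.72 ± 0.25 (log2, SD, n = 3), Nrp2 exceeded Sema3f by 1.58 ± 0.08, Nrp1 exceeded Sema3c by 1.03 ± 0.26 and Nrp1 exceeded Sema3a by 0.77 ± 0.28. The exception was Sema3d, which lay above Nrp1 in every library (receptor minus ligand, -0.48 ± 0.30). The Sema3a and Nrp1 difference was 1.06 in library 1 and 0.50 and 0.75 in the others.

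Membrane semaphorins fell on both sides. Plxnb2 exceeded Sema4g by 3.71 ± 0.31, Sema4a by 2.86 ± 0.35 and Sema4c by 1.91 ± 0.29, whereas Plxnb1 and Sema4d were mixed (-0.24 ± 0.38). Plxna1 was below Sema5a (-1.01 ± 0.29) and Sema6d (-0.52 ± 0.24) and above Sema6c (2.36 ± 0.26). Plxna2 exceeded Sema6a by 0.61 ± 0.09. Plxnc1 was below Sema7a (-0.78 ± 0.59), with a difference of -0.11 in library 2 against -1.01 and -1.23 in libraries 1 and 3. Without division by length this direction turned (0.34).

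Ephrins exceeded the Eph receptors set against them in most pairs. Ephb2 lay below Efnb1 (-3.69 ± 0.22) and Efnb3 (-3.73 ± 0.39), Ephb3 below Efnb1 (-1.89 ± 0.15), Epha2 below Efna1 (-1.74 ± 0.30) and Epha3 below Efna5 (-1.19 ± 0.35). Epha4 and Efna5 could not be separated (-0.05 ± 0.07, receptor higher in 1 of 3 libraries). The receptor was higher in the pairs of Ephb4 with Efnb2, its preferred ligand (1.43 ± 0.21), and of Epha4 with Efna4 (0.31 ± 0.20).

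Robo1 exceeded Slit2 by 2.86 ± 0.20, while Robo1 and Slit3 were mixed (-0.14 ± 0.14, receptor higher in 1 of 3 libraries). Robo2 exceeded Slit2 by 0.26 ± 0.24, a direction that turned without division by length (-0.14). For Ntn1, the receptors lie outside the rule for members. Unc5b (291, 255 and 299.7 units) exceeded Ntn1 by 4.64 ± 0.29 and Neo1, which encodes neogenin (376, 389 and 391 units), by 4.62 ± 0.39. Dcc (3.00, 6.29 and 4.33 units) and Ntn1 were mixed (-0.45 ± 0.48).

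By the median, members varied more between libraries than protein coding genes did. Of 49 with a mean of at least 10, 39 had a log2 range under 0.5 between the highest and lowest library. The other 10 had a range of at least 0.5 (20.4%, against 7.64% of protein coding genes at that level). These were Sema3a, Sema3c, Sema3d, Sema4d, Sema4g, Sema7a, Epha2, Epha3, Ephb2 and Slit2, of which 7 are ligand genes and 3 receptor genes. Plxna1, at 0.495, lay just below that limit. The median log2 range was 0.32 over the 49 members and 0.19 over protein coding genes, and the median SD of log2 was 0.16 and 0.10. If the smallest deposited value stands for 1 read, 95% Poisson intervals of the highest and lowest library did not overlap for 45 of the 49 members (91.8%, against 66.8% of protein coding genes at that level). Those intervals cover counting error only.

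**Figure D4:**
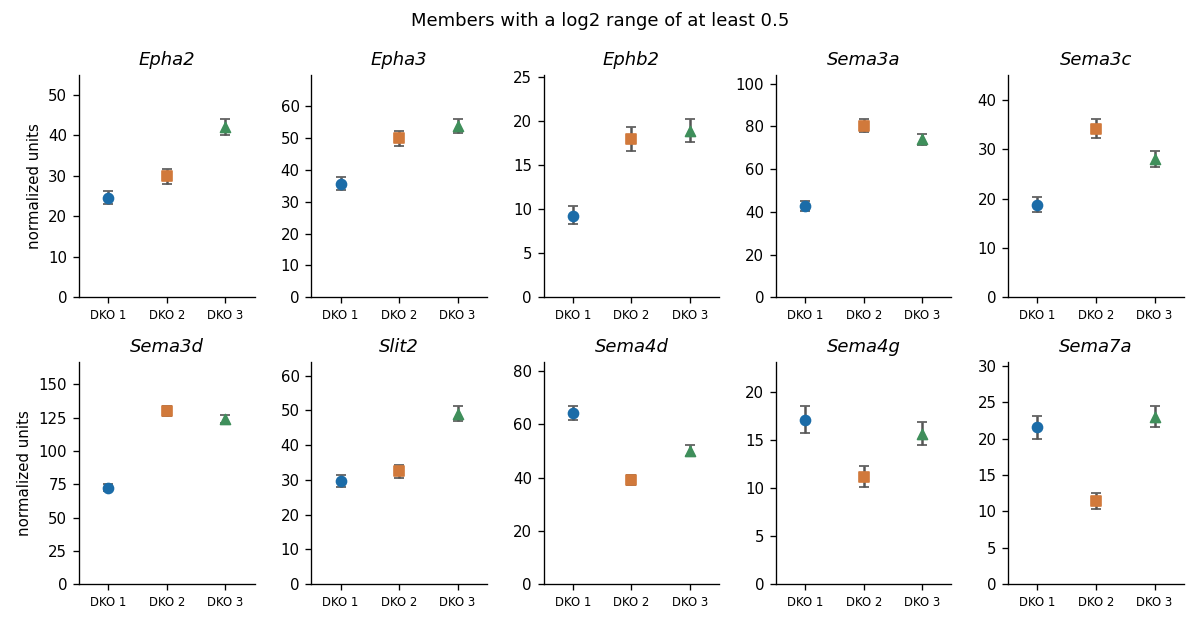
Deposited values in the 3 DKO libraries for the 10 members with a log2 range of at least 0.5, each on its own axis from 0, with bars for 95% Poisson intervals if the smallest value is 1 read. Library 1 is lowest in 7 panels and library 2 in the 3 panels of Sema4d, Sema4g and Sema7a.

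Of the 10 variable members, 7 were lowest in library 1 (Sema3a, Sema3c, Sema3d, Epha2, Epha3, Ephb2 and Slit2) and 3 in library 2. Among the 775 protein coding genes with such a range, 41.0% were lowest in library 1 and 32.5% in library 2. Over the 49 members, 22 were lowest in library 1 (44.9%, against 38.4% of protein coding genes). By contrast, 12 members were highest in library 1 (24.5%, against 31.0%), 11 in library 2 (22.4%, against 34.0%) and 26 in library 3 (53.1%, against 34.9%). The median member lay 0.17 (log2) above the mean of the other libraries in library 3, where the median protein coding gene lay at 0.005. Of receptor genes, 13 of 21 were highest in library 3, among them Nrp1, Nrp2, Plxna1, Plxnb2, Plxnd1 and Ephb4, and of ligand genes 13 of 28.

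Without library 1, 2 of 49 members kept a log2 range of at least 0.5 (4.08%, against 2.17% of protein coding genes), namely Sema7a and Slit2. Without library 2 or library 3 the count was 7 of 48 each (14.6%, against 4.89% and 4.75%).

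Markers of several cell types moved between the same libraries, and their part in these differences was not tested. In library 1 the 8 interferon-stimulated genes summed to 1062 units, against 197 and 201. The 5 macrophage markers summed to 676, against 936 and 966, and the 5 mesenchymal markers to 1237, against 1412 and 1379. Of the mesenchymal markers, Pdgfra, Prrx1 and Twist1 were lowest in library 1. Thy1 (20.8, 22.1 and 20.9) was nearly even, and Gli1 (45.7, 39.2 and 40.2) was highest in library 1. In library 2, where Sema4d, Sema4g and Sema7a were lowest, the 4 odontoblast markers summed to 5877, against 15295 and 17557 (libraries 1 and 3), and the 6 dental epithelium markers to 764, against 543 and 545. The largest part of the odontoblast sum was Col1a1 (9950, 4719 and 13715). All 4 odontoblast markers were lowest in library 2, but Dspp (4959, 1072 and 3489) and Phex (377, 79.7 and 339) were highest in library 1. In library 3, where most receptors were highest, the 6 endothelial markers summed to 450, against 323 and 339. The 5 mural markers summed to 897 there, against 806 and 780, with the largest part from Rgs5 (515, 477 and 570). The mural markers did not move together. Rgs5, Pdgfrb and Notch3 were highest in library 3, while Acta2 (57.3) and Myh11 (32.9) were highest in library 2. Myh11 was lowest in library 3 (23.4). The 3 listed of 4 lymphocyte markers summed to 54.2, 68.0 and 65.5 in libraries 1, 2 and 3. Nearly all of that sum was Ptprc (53.7, 67.6 and 65.2), while Cd3e (0.174 ± 0.155) and Cd79a (0.233 ± 0.132) were under 1 unit. The 3 listed of 4 neuronal markers summed to 18.3, 19.1 and 24.7. The 4 osteoclast markers summed to 74.7, 95.5 and 92.6, lowest in library 1 where Sema4d was highest. Of these markers, Mmp9 (8.16, 20.5 and 22.5) and the weak Calcr (0.262 ± 0.192) were lowest in library 1. Acp5 (26.7, 35.5 and 24.5) was lowest in library 3 and Ctsk (39.7, 39.0 and 45.4) in library 2.

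The class 3 semaphorin genes that are neighbours on chromosome 5 differed in which library was highest. Sema3d, Sema3a, Sema3e and Sema3c lie within 5.35 Mb, all on the plus strand, with 3 other listed protein coding genes between them, a set chosen after its values were seen. Sema3d, Sema3a and Sema3c were lowest in library 1, with log2 ranges of 0.83, 0.90 and 0.83, while Sema3e, between Sema3a and Sema3c, was highest there with a range of 0.38. Cacna2d1, a calcium channel subunit gene in the same stretch, stood at 56.6, 54.8 and 54.3 units with a range of 0.06. Hgf, which encodes hepatocyte growth factor, stood at 10.8, 8.57 and 9.22, and Pclo, a gene of presynaptic terminals, at 8.04, 10.9 and 5.26.

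**Figure D5:**
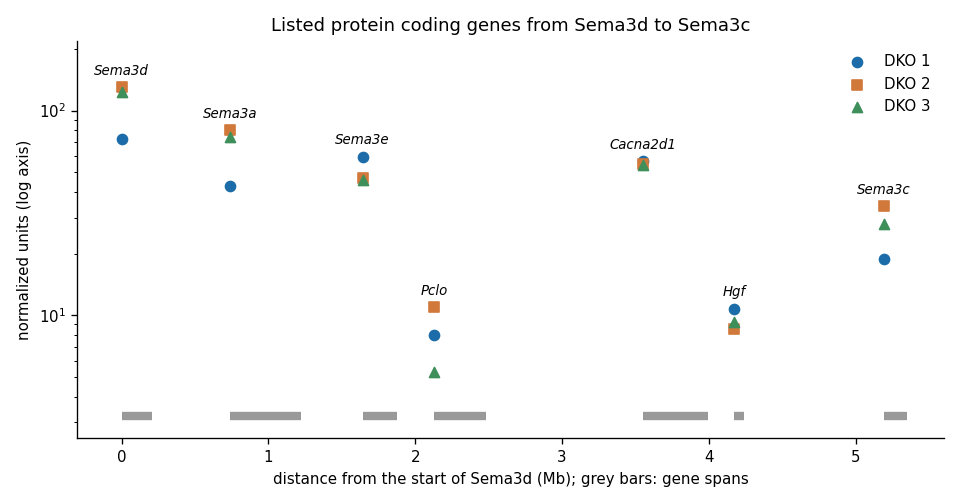
Deposited values in the 3 DKO libraries (log axis) for the 7 listed protein coding genes from Sema3d to Sema3c, plotted at the distance of their start from that of Sema3d, with grey bars for gene spans. Library 1 lies below the others at Sema3d, Sema3a and Sema3c and above them at Sema3e.

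By the median, other genes of these pathways had a spread similar to that of protein coding genes. A list of 72 receptors, modulators and intracellular partners outside the rule, made with earlier results of these data known, held 70 that were listed, of which 58 had a mean of at least 10. Of these, 1 had a log2 range of at least 0.5, against 7.64% of protein coding genes. The median range was 0.18, against 0.19 for protein coding genes at that level. The gene with the wide range was Sdc3, a syndecan gene, at 383, 222 and 345 units, lowest in library 2. Values not divided by length were highest for the following 4, an order that is not one of levels per kilobase. They were Itgb1 (887, 1051 and 1082), the integrin subunit that binds semaphorin 7A, Cdc42 (449, 436 and 454), Rhoa (392, 436 and 439) and Cfl1 (384, 427 and 414). The GTPase genes Cdc42 and Rhoa and the actin-severing factor gene Cfl1 thus differed by at most 1.12-fold between libraries. All 44 intracellular genes at a mean of at least 10 had a range under 0.5.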

How the data were processed

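RNA of 3 DKO libraries was analysed. The deposited signal is a normalized value per gene made by the authors. Its upper quartile was 44.7 units in all columns, as after upper-quartile scaling. Reads were aligned with TopHat2 2.0.8 to mm10, per the submitters' processing notes. Counter, strand setting and treatment of multiply mapped reads: not given in the sources used here. The library number links each column to its sample. If the smallest value is 1 read, counting error at a value of 10 was 4.83% to 5.40%. Whether it is 1 read is unsettled, so no count test was used, and the Poisson intervals rest on that assumption.

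The result of 1 marker list is not reported here. Members, lists and pairs were chosen with earlier results of these data known. Full values were given for members with a mean of at least 50, or of at least 10 with a log2 range of at least 0.5, and for both genes of each pair described. Ranges used log2(value + 1), which understates differences of low genes, and the filter was a mean of at least 10. Exon length was the union of GENCODE M21 exons (GRCm38), matched for 61 of 61 members. Gene-level length can exceed that of the transcript used, which lowers the value per kilobase. Python 3.11.15, pandas 2.3.3, numpy 2.4.6 and scipy 1.17.1 were used, and the spread measure was tested on simulated data. Alternatives were other level limits, pseudocounts, filters and scalings, deposited values in place of values per kilobase, and leaving out each library.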

Additional observations from a re-analysis of the deposited data

How the results depend on the processing

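No paired analysis was possible because the labels give 1 group. The 49 members at a mean of at least 10 became 12 at a limit of 100, which keeps fewer genes by construction, and stayed within 1.5 times at limits of 1 and 5 and under both scalings. The 10 members with a log2 range of at least 0.5 numbered 1 when the filter was a mean of 100 or more. Leaving out single libraries gave 2 to 7. Members highest in replicates 1, 2 and 3 numbered 2, 3 and 7 with that filter, and 17 in replicate 2 with no filter on low values. With deposited values in place of values per kilobase, 6 pair differences reversed: Plxnb1 minus Sema4d was 0.044, Plxnc1 minus Sema7a 0.34, Epha3 minus Efna2 1.57, Epha4 minus Efna5 0.93, Robo1 minus Slit3 1.29 and Robo2 minus Slit2 -0.14. No other alternative reversed a pair. For pairs with the same direction in 3 of 3 libraries, another pseudocount or leaving out a library could not have done so. Without division by length the shares of the guidance total were 14.1% for class 5, 7.10% for class 6, 4.05% for class 4 and 0.479% for class 7 semaphorins, 8.76% for A plexins, 8.32% for Robos, 4.81% for neuropilins, 6.62% for B-type and 3.49% for A-type ephrins, 5.87% for EphB receptors and 0.951% for netrins. Levels of the 29 members with a mean of at least 50 or a wide range moved by less than 1 SD under equal totals. With a library left out they also did, but a mean of 3 libraries cannot move by 1 SD that way. The latter result therefore says nothing about stability. Depth limits statements on members with values near 1.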
